A study of Homo sapiens with 3 samples.

Results

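The 10 genes described here encode hnRNP U and other RNA-binding proteins of the nuclear scaffold: HNRNPU, HNRNPUL1, HNRNPUL2, SAFB, SAFB2, SLTM, MATR3, SFPQ, NONO and PSPC1. They were chosen by gene symbol, and each had 1 row in every library, so that all 10 of the 10 were measured, among 55827 gene names found in all 3 libraries. The cells were PLC, a human liver cancer line in long use, collected for RNA sequencing 48 hours after infection with viruses carrying short hairpin RNAs. Cells of the control library carried a non-targeting hairpin (NTC), those of the shDIS3L2 library hairpins against the exoribonuclease gene DIS3L2, and those of the shHNRNPU library hairpins against HNRNPU. All 3 libraries share the cell line, the viral infection and the time of collection, and how many hairpins were used per target was not stated in the labels.

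The nuclear scaffold, or nuclear matrix, is the network of protein and RNA that remains when chromatin and soluble proteins are extracted from the nucleus. hnRNP U, also called scaffold attachment factor A, binds DNA through a SAP domain and RNA through an arginine- and glycine-rich tail, and takes part in chromatin organisation and pre-mRNA splicing. The SAFB proteins share the SAP domain and an RNA recognition motif, and MATR3 is a matrix protein with paired RNA recognition motifs. SFPQ, NONO and PSPC1 form the DBHS family (Drosophila behaviour and human splicing), which pairs into dimers and builds paraspeckles, nuclear bodies assembled on the long noncoding RNA NEAT1. The study concerns DIS3L2 in liver cancer and alternative splicing mediated by hnRNP U. The gene-level values used here do not resolve isoforms.

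Values are FPKM, fragments scaled to transcript length and to the mapped fragments of the library, a level that can be set side by side between genes because it is scaled to length. The range given with an FPKM is the interval the authors deposited for that library. It covers the uncertainty of the estimate, and says nothing of how cultures vary. With 1 library per group there are no replicates and there is no test. The size rule used here asks for a log2 ratio of 1 or more, or -1 or less, computed on FPKM plus 1, together with deposited intervals that lie apart. Smaller differences are described by whether the intervals lay apart. A fold is the plain ratio of 2 FPKM, and its range was computed from the deposited intervals. In bulk RNA, fewer cells expressing a gene and less of its RNA per cell cannot be told apart.

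The labelled cell type was checked against marker genes. All 14 hepatocyte and liver carcinoma markers had a mean FPKM of at least 1, with SERPINA1 at 11439 FPKM, KRT8 at 2580 and ALB at 11.8 in control. Their summed level was 17041 FPKM in control, 6890 in shDIS3L2 and 11432 in shHNRNPU, and SERPINA1, at 2865 FPKM in shDIS3L2 and 6710 in shHNRNPU, carried much of that difference. Against control, intervals lay apart for 12 of the 14 as lower in shDIS3L2 and for 8 as lower and 0 as higher in shHNRNPU. Of all genes with a mean FPKM of at least 1, 24.8% lay apart as lower and 32.9% as higher in shDIS3L2. In shHNRNPU these shares were 23.1% and 34.6%. The fibrinogen genes FGB and FGG were the 2 higher markers in shDIS3L2, at 17.9 FPKM against 6.21 (past the size rule) and 37.1 against 19.1. The part of these differences in the results for the 10 genes was not tested. Of 6 fibroblast and stellate cell markers, 0 reached a mean FPKM of 1, LUM was listed at 0 in every library, and the sums lay between 0.956 and 1.41 FPKM. Of 7 blood and endothelial cell markers, 6 were found by name in every library, and PECAM1 was not. Among these 6, CD3E was listed at 0 in every library. The 1 with a mean FPKM above 1 was CD68, whose locus was merged with EIF4A1. The median deposited interval reached to either side by 10.7% of the FPKM in control, 11.7% in shDIS3L2 and 11.4% in shHNRNPU. For the 10 genes it reached 3.51% for HNRNPU in control and 22.4% for SLTM in shHNRNPU, the extremes.

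In control cells the levels of the 10 genes spanned from 7.09 FPKM for SLTM to 264 for NONO. The order from the top was NONO, HNRNPU, HNRNPUL1, SFPQ, SAFB, HNRNPUL2, SAFB2, MATR3, PSPC1 and SLTM. Neighbours in that order had intervals apart except MATR3 and PSPC1. In shDIS3L2 the same pair of genes, NONO and HNRNPU, stood at the top, with overlapping intervals. In shHNRNPU, HNRNPU stood in place 8 between MATR3 and SAFB2, and its interval overlapped those of both. NONO was the highest and SLTM the lowest of the 10 in every library.

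**Figure D1:**
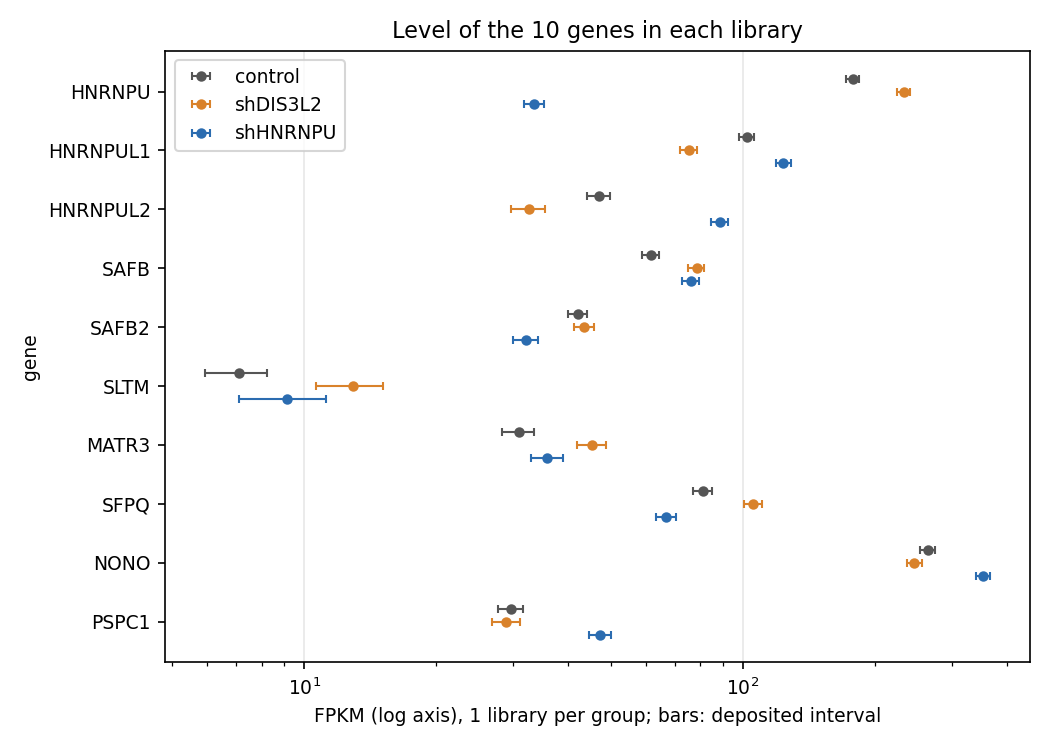
FPKM (log axis) of the 10 genes, 1 point per library (control, shDIS3L2, shHNRNPU), with the deposited interval as a bar. HNRNPU in shHNRNPU lies at 33.5 FPKM, far to the left of its 178 in control, while HNRNPUL2 shows the widest gap from control to shHNRNPU among the other genes, 46.9 to 88.6. HNRNPUL2 is the row merged with BSCL2, and HNRNPU and NONO are merged rows too.

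HNRNPU, the gene targeted in one of the libraries, was measured first as a check on the label. Its level was 178 FPKM in control (172 to 184), 232 in shDIS3L2 (224 to 241) and 33.5 in shHNRNPU (31.8 to 35.2). The 3 intervals lay apart, with shHNRNPU the lowest library and shDIS3L2 the highest. The fold in shHNRNPU was 0.188 (0.177 to 0.200), 81.2% below control, and the log2 ratio of -2.38 was the 212th lowest of 11446 genes with a mean FPKM of at least 1. By FPKM rank, HNRNPU passed from place 765 among those genes in control to place 3102 in shHNRNPU.

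In shDIS3L2 the HNRNPU fold was 1.30 (1.24 to 1.37), a log2 ratio of 0.38. DIS3L2 itself was in a row merged with AC068134.10 in every library. That row stood at 7.61 FPKM in control (6.70 to 8.53), 3.23 in shDIS3L2 (2.31 to 4.15) and 11.2 in shHNRNPU (10.0 to 12.4). The row of each targeted gene was thus lowest in its own knockdown and highest in the other one. Both comparisons share the control library, and the higher level was seen in 1 library each.

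The HNRNPU locus is on chromosome 1, 245003940 to 245027858 (hg19), and was merged with the antisense gene HNRNPU-AS1. Reads of the antisense gene cannot be separated, because nothing in the labels says that strand was kept. The assembled end was 245027850 in shHNRNPU. The row of COX20, which encodes an assembly factor of cytochrome c oxidase, overlaps 4420 bases of the HNRNPU locus in control. COX20 was listed at 0 in control and shDIS3L2 and at 12.9 FPKM (11.7 to 14.1) in shHNRNPU. Of the 50-base stretches in HNRNPU transcripts of GENCODE release 29, 14.1% also occur, on either strand, in transcripts named COX20. A listed 0 may be an estimate that failed, and how fragments were divided between the overlapping rows was not tested.

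HNRNPUL1 and HNRNPUL2 encode relatives of hnRNP U that share its SAP and SPRY domains. Both were higher in shHNRNPU than in control, and both were lower in shDIS3L2. HNRNPUL1, on chromosome 19 at 41768401 to 41813503, stood at 102 FPKM in control (98.2 to 106), 75.3 in shDIS3L2 (71.8 to 78.7) and 124 in shHNRNPU (119 to 128). All 3 intervals lay apart. The fold was 1.21 (1.15 to 1.28) in shHNRNPU and 0.738 (0.695 to 0.783) in shDIS3L2. The row of TGFB1 overlaps 6012 bases of the locus and stood at 99.1, 79.7 and 84.7 FPKM in control, shDIS3L2 and shHNRNPU. Its assembled end differed in shHNRNPU. How fragments were divided between the 2 rows was not tested.

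HNRNPUL2 stood at 46.9 FPKM in control (44.2 to 49.7), 32.5 in shDIS3L2 (29.5 to 35.5) and 88.6 in shHNRNPU (84.5 to 92.7). Its 3 intervals also lay apart, in the same order as those of HNRNPUL1. The fold of 1.89 (1.75 to 2.03) in shHNRNPU was the highest of the 10 genes, with a log2 ratio of 0.90. In shDIS3L2 the fold was 0.692 (0.621 to 0.771). This value belongs to a locus on chromosome 11, 62457747 to 62494856, merged with BSCL2, which encodes the lipid droplet protein seipin, and with the readthrough gene HNRNPUL2-BSCL2. The part of HNRNPUL2 in it cannot be read from the gene-level row. In shHNRNPU the locus began at 62453874 and also took in LRRN4CL, which stood at 0.0507 FPKM in control and 0.0425 in shDIS3L2. The difference of HNRNPUL2 moved with this change of bounds, whose part in the result was not tested.

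The make-up of the HNRNPU family by level differed between the libraries. HNRNPU held 54.5% of the summed FPKM of the 3 rows in control, 68.3% in shDIS3L2 and 13.6% in shHNRNPU. In these shares and sums HNRNPUL2 is the row merged with BSCL2, and HNRNPU the row merged with HNRNPU-AS1. They are therefore shares of rows, and the part of HNRNPUL2 alone cannot be read from them. The sum itself was 327 FPKM in control, 340.3 in shDIS3L2 and 246 in shHNRNPU. The level of HNRNPU relative to HNRNPUL1 was 1.75 in control (1.66 to 1.84), 3.09 in shDIS3L2 (2.91 to 3.27) and 0.271 in shHNRNPU (0.254 to 0.289). HNRNPUL1 was therefore the highest gene of the family in shHNRNPU and HNRNPU in the other 2 libraries. Such ratios within a library do not depend on how libraries are scaled.

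**Figure D2:**
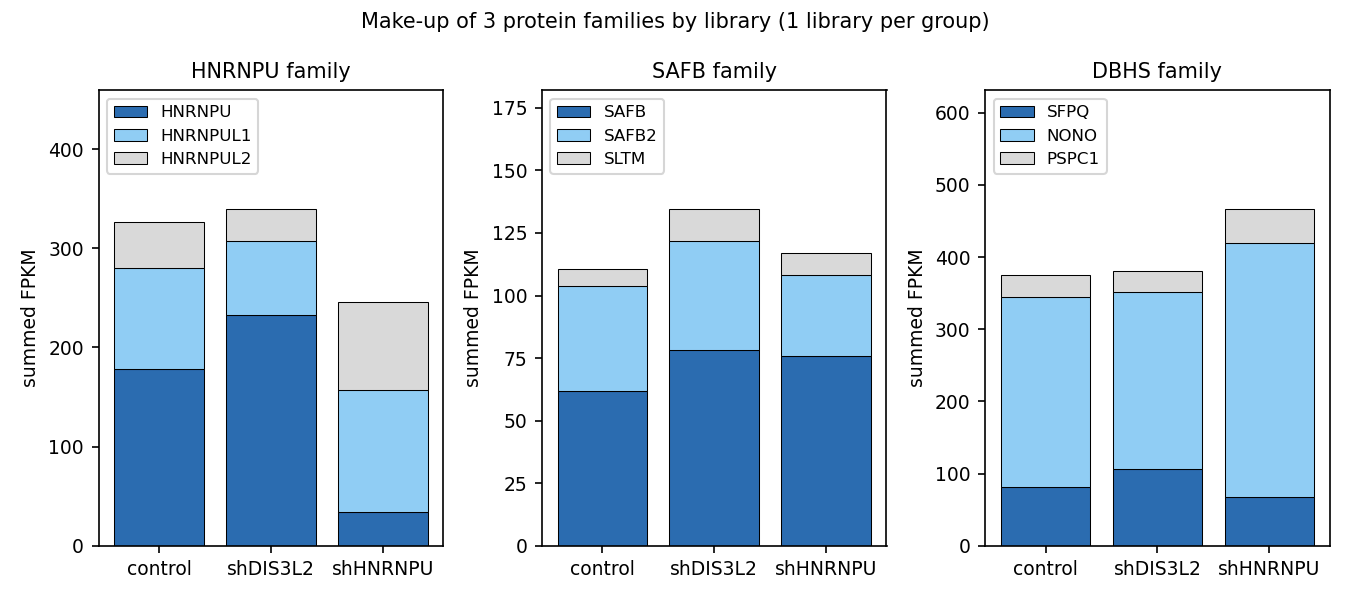
Summed FPKM, stacked by gene, of the HNRNPU, SAFB and DBHS families in the 3 libraries, 1 library per bar and no error bars. HNRNPU makes up 54.5% of its family in control and 13.6% in shHNRNPU, SAFB 55.7% and 64.8% of its own, and NONO 70.4% and 75.6% of the DBHS family. The HNRNPUL2 part is the row merged with BSCL2, and the HNRNPU and NONO parts are merged rows too.

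SAFB and SAFB2 encode scaffold attachment factors B1 and B2, close relatives that bind scaffold attachment DNA and RNA and act as transcriptional corepressors. They lie head to head on chromosome 19, SAFB at 5623046 to 5668489 and SAFB2 at 5587001 to 5624057 in control, and their loci overlap by 1012 bases. Their start regions are shown because this pair, transcribed in opposite directions from a common stretch of DNA, differed in opposite directions in shHNRNPU. In RefSeq (GRCh38.p14, where SAFB lies on the plus strand and SAFB2 on the minus strand) the start sites are 307 bases apart. The assembled loci overlap instead of leaving such a gap. The stretch between the RefSeq starts therefore need not lie outside both genes as measured here. The stretch that lies 57 to 250 bases before both start sites, chr19:5622833-5623026, is printed 5′ to 3′ on the plus strand, with a GC box in capitals.
SAFB and SAFB2 shared start region: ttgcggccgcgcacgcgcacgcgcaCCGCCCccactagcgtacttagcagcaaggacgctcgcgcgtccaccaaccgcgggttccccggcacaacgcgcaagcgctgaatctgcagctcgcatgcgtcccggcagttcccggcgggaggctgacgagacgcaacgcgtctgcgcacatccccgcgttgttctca
These 194 bases held 69.1% G or C and 31 CpG dinucleotides, against medians of 57.2% and 7 over 35116 RefSeq promoter windows at the same distance from the start. Both strands were searched for the GC box GGGCGG, the CAAT box CCAAT, the TATA motif TATAAA, the ETS family motif CCGGAAG and GCATGCGC, 1 form of the core of the NRF1 motif. The GC box had 1 match, on the minus strand, and occurs in 33.8% of the windows. The other exact strings had 0 matches here, while the CAAT box occurs in 26.5%, the TATA motif in 7.48% and the ETS motif in 4.84% of the windows, and the NRF1 string in 1.504%. Variants with other bases were not counted. GCACGCGC, 1 base away from the NRF1 string, occurs in the printed stretch. Absence of an NRF1 motif can therefore not be read from this search.

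SAFB stood at 61.7 FPKM in control (58.9 to 64.4), 78.4 in shDIS3L2 (75.1 to 81.7) and 76.0 in shHNRNPU (72.7 to 79.3). Both knockdown libraries lay above control and overlapped each other. SAFB2 stood at 42.0 FPKM in control (39.95 to 44.1), 43.5 in shDIS3L2 (41.1 to 45.8) and 32.1 in shHNRNPU (29.9 to 34.2). Here shHNRNPU lay below the other 2 libraries, which overlapped. In shHNRNPU the fold was 1.23 (1.16 to 1.31) for SAFB and 0.763 (0.703 to 0.829) for SAFB2.

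The level of SAFB relative to SAFB2 was 1.47 in control (1.37 to 1.57), 1.80 in shDIS3L2 (1.69 to 1.93) and 2.37 in shHNRNPU (2.19 to 2.56), with all 3 ranges apart. Of the 50-base stretches of SAFB transcripts, 8.19% also occur in SAFB2 transcripts, and 9.42% of those of SAFB2 occur in SAFB. Matches on either strand were counted, so part of these stretches may be the overlap of the loci itself. Reads from these stretches and from the overlap may have been divided between the genes.

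SLTM encodes the SAFB-like transcription modulator, the third member of the family, and lies on chromosome 15 at 59171244 to 59226111 in control. Its level was 7.09 FPKM in control (5.93 to 8.25), 12.9 in shDIS3L2 (10.7 to 15.2) and 9.15 in shHNRNPU (7.10 to 11.2). The shDIS3L2 interval lay above that of control, and the shHNRNPU interval overlapped both others. The fold of 1.82 (1.43 to 2.31) in shDIS3L2, a log2 ratio of 0.78, was the highest of the 10 genes in that comparison. The locus lies within the row of RNF111, a ubiquitin ligase gene on the opposite strand, which stood at 2.50 FPKM in control, 5.32 in shDIS3L2 and 5.80 in shHNRNPU. The assembled end of SLTM differed in each library, and the part of either fact in the result was not tested.

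MATR3 encodes matrin 3, an abundant protein of the inner nuclear matrix that regulates splicing and RNA stability. It lies on chromosome 5 at 138609441 to 138667360. Its level was 30.8 FPKM in control (28.2 to 33.4), 45.3 in shDIS3L2 (41.8 to 48.8) and 35.8 in shHNRNPU (32.8 to 38.8). The shDIS3L2 library lay above the other 2, which overlapped. The fold was 1.47 (1.31 to 1.65) in shDIS3L2 and 1.16 (1.03 to 1.31) in shHNRNPU. The row of SIL1 overlaps 19806 bases of the locus and stood at 90.6, 65.4 and 80.3 FPKM in control, shDIS3L2 and shHNRNPU. SIL1, which encodes an exchange factor for the chaperone BiP, was lowest in the library where MATR3 was highest.

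SFPQ, NONO and PSPC1 encode the 3 DBHS proteins, and they did not differ from control in 1 direction. SFPQ, on chromosome 1 at 35641979 to 35658749, stood at 81.2 FPKM in control (77.1 to 85.2), 106 in shDIS3L2 (100.4 to 111) and 66.9 in shHNRNPU (63.4 to 70.4). Its 3 intervals lay apart, with shDIS3L2 highest and shHNRNPU lowest, the same order as for HNRNPU. NONO, on chromosome X at 70503042 to 70521018, stood at 264 FPKM in control (254 to 274), 246 in shDIS3L2 (236 to 256) and 353 in shHNRNPU (339 to 367).

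For NONO, shHNRNPU lay above the other 2 libraries, which overlapped. PSPC1, which encodes paraspeckle component 1 and lies on chromosome 13 at 20248896 to 20357142, stood at 29.6 FPKM in control (27.7 to 31.6), 28.9 in shDIS3L2 (26.8 to 31.0) and 47.3 in shHNRNPU (44.6 to 49.99). Its libraries were ordered like those of NONO, and control and shDIS3L2 again overlapped. The folds in shHNRNPU were 0.824 (0.767 to 0.886) for SFPQ, 1.34 (1.27 to 1.41) for NONO and 1.596 (1.46 to 1.74) for PSPC1.

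Within the DBHS family, the level of NONO relative to SFPQ was 3.25 in control (3.05 to 3.46), 2.33 in shDIS3L2 (2.19 to 2.48) and 5.28 in shHNRNPU (4.94 to 5.63). That of SFPQ relative to PSPC1 was 2.74 in control (2.52 to 2.97), 3.66 in shDIS3L2 (3.35 to 3.997) and 1.41 in shHNRNPU (1.31 to 1.53). Both sets of ranges lay apart, and in both SFPQ held its largest share in shDIS3L2. NONO relative to PSPC1 was 8.91 (8.26 to 9.60) in control and 8.52 (7.84 to 9.26) in shDIS3L2, which overlapped. In shHNRNPU it was 7.47 (6.97 to 8.0004), apart from control and overlapping shDIS3L2. The summed FPKM of the family was 375 in control, 381 in shDIS3L2 and 467 in shHNRNPU. The NONO locus was merged with AL590762.1 in every library. Of the 50-base stretches of NONO transcripts 7.78% occur in AC092115.1, and 6.32% of those of PSPC1 in PSPC1P1.

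Between shHNRNPU and control, 1 of the 10 genes passed the size rule, HNRNPU itself, as lower. Of the 11446 genes with a mean FPKM of at least 1, 6.84% passed it as lower and 7.47% as higher. Intervals lay apart for 8 of the 10. The 5 higher genes were HNRNPUL1, HNRNPUL2, SAFB, NONO and PSPC1, and the 3 lower ones HNRNPU, SAFB2 and SFPQ. Of all those genes 34.6% lay apart as higher and 23.1% as lower. SLTM and MATR3 overlapped control. The median log2 ratio of the 10 was 0.29, against 0.11 over all genes tested.

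Between shDIS3L2 and control, 0 of the 10 passed the size rule, where 8.51% of all genes passed it as higher and 6.75% as lower. Intervals lay apart for 5 of the 10 as higher and 2 as lower, against 32.9% and 24.8% of all genes. HNRNPU, SAFB, SLTM, MATR3 and SFPQ were higher, HNRNPUL1 and HNRNPUL2 lower, and SAFB2, NONO and PSPC1 overlapped control. The median log2 ratio was 0.19, against 0.09 over all genes.

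Rescaling the libraries to a common median of ratios lowered every log2 fold by 0.15 in shHNRNPU and 0.11 in shDIS3L2. In shHNRNPU the same 8 genes then had intervals apart, in the same directions. Among the 5 higher genes the folds nearest to 1 became 1.09 for HNRNPUL1 and 1.11 for SAFB. In shDIS3L2 the same 7 did, and NONO joined them as lower with a fold of 0.862. SAFB2 in shDIS3L2, whose intervals overlapped either way, turned from a log2 ratio of 0.05 to -0.06. Over all genes, the 855 higher and 783 lower past the size rule in shHNRNPU became 636 and 975.

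The knockdowns were also compared directly, a comparison that does not use the control library. HNRNPU was lower in shHNRNPU than in shDIS3L2, with a fold of 0.144 (0.135 to 0.153), and HNRNPUL2 higher, with a fold of 2.73 (2.46 to 3.02) and a log2 ratio of 1.42. These 2 of the 10 passed the size rule, where 9.24% of all genes passed it as higher and 10.1% as lower. The HNRNPUL2 value is that of the row merged with BSCL2, whose bounds differed in shHNRNPU. HNRNPUL1 had a fold of 1.64 (1.55 to 1.75), PSPC1 of 1.64 (1.49 to 1.80) and NONO of 1.44 (1.36 to 1.52). SFPQ had a fold of 0.633 (0.590 to 0.680), SAFB2 of 0.738 (0.677 to 0.803) and MATR3 of 0.791 (0.706 to 0.886). Intervals thus lay apart for 4 higher and 4 lower genes of the 10, against 31.3% and 28.4% of all genes, and overlapped for SAFB and SLTM.

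**Figure D3:**
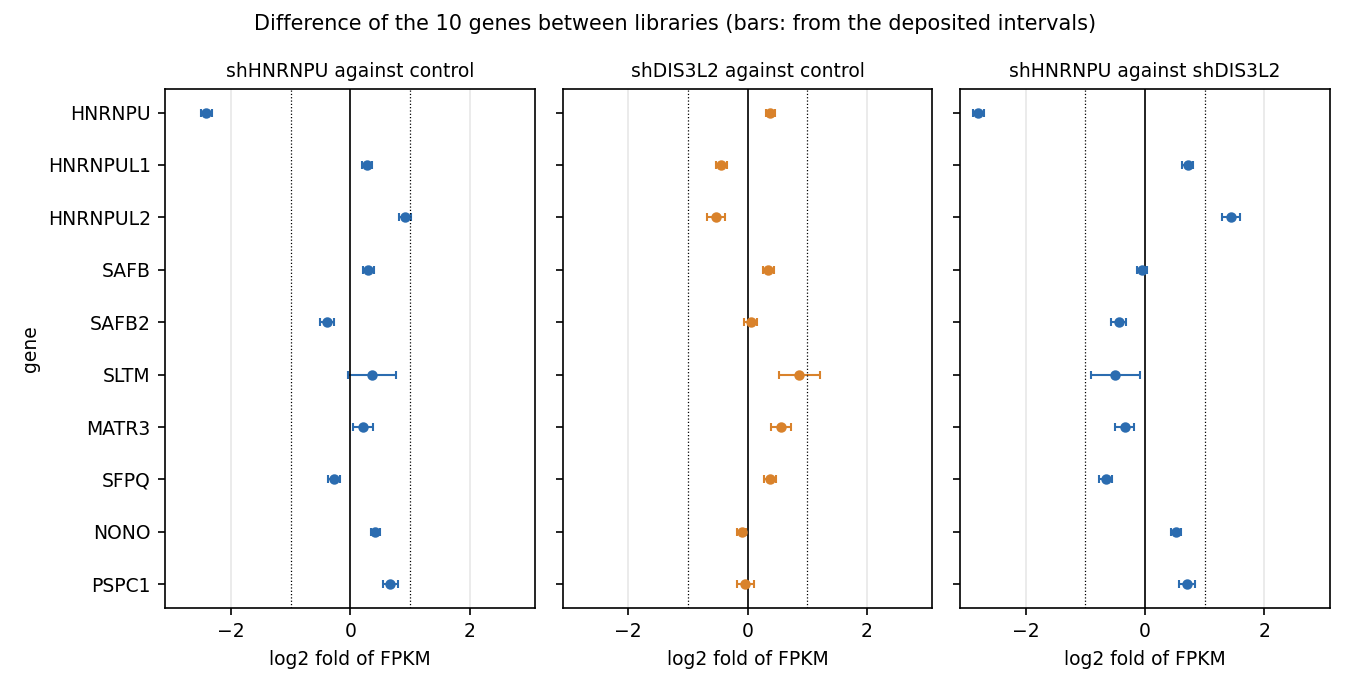
Log2 fold of FPKM, without a pseudocount, of the 10 genes in the 3 comparisons, with ranges computed from the deposited intervals and dotted lines at -1 and 1. The first and second panels share the control library. HNRNPU lies past -1 in both panels that use shHNRNPU, and HNRNPUL2 past 1 in the panel of shHNRNPU against shDIS3L2. HNRNPUL2 is the row merged with BSCL2, and HNRNPU and NONO are merged rows too.

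The genes whose pattern lay closest to that of HNRNPU were taken among 4204 other genes with a mean FPKM of at least 20 and above 0 in every library, by the distance between the pairs of log2 ratios against control. With only 3 libraries, this measure rests on 2 values per gene. EWSR1, which encodes an RNA-binding protein of the FET family, was the nearest (distance 0.440). It stood at 219.7 FPKM in control (212 to 228), 220.03 in shDIS3L2 (212 to 228) and 48.6 in shHNRNPU (45.9 to 51.3). Its intervals overlapped between control and shDIS3L2, and shHNRNPU lay below both, with a log2 ratio of -2.15 against control. It was followed by the integrin gene ITGA5 at 118, 189 and 28.0 FPKM in control, shDIS3L2 and shHNRNPU, and by the merged locus of C18orf32 and the ribosomal protein gene RPL17 at 1102, 1671 and 282. HAX1, which encodes a regulator of apoptosis, stood at 156, 151 and 25.3 FPKM, and ETFA, which encodes a subunit of the electron transfer flavoprotein, at 187, 202 and 46.4. The assembled bounds of ITGA5 differed in shHNRNPU.

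Related genes were described by 4 lists. Of 22 other hnRNP genes measured, 0 passed the size rule in either knockdown against control, where 7.47% of all genes passed it as higher and 6.84% as lower in shHNRNPU, and 8.51% and 6.75% in shDIS3L2. Their medians were 0.14 in shHNRNPU and 0.12 in shDIS3L2, against 0.11 and 0.09 over all genes. HNRNPH3, a splicing factor related to hnRNP H, had the highest log2 ratio of the 22 in shHNRNPU (0.94), at 146 FPKM (139 to 152) against 75.4 (71.4 to 79.5). HNRNPK, a poly(C)-binding protein, stood at 219 FPKM in control, 249 in shDIS3L2 and 184 in shHNRNPU. HNRNPL, merged with ECH1, was the 1 gene of the 22 past the rule between the knockdowns, at 851 FPKM in shHNRNPU and 375 in shDIS3L2. Of all genes 9.24% were higher and 10.1% lower there.

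Of 29 other paraspeckle components with a mean FPKM of at least 1, 2 were higher and 2 lower in shHNRNPU, with a median of 0.03. These counts are near the 7.47% and 6.84% of all genes. The lower ones were EWSR1 and BCL6, a transcriptional repressor (8.62 to 3.68 FPKM, log2 ratio -1.04). The higher ones were SS18L1 and RBM4B, each merged with another gene in at least 1 library, and RBM4B was listed at 0 in control. In shDIS3L2, 1 was higher (SS18L1) and 1 lower, the scaffold RNA NEAT1, with a median of 0.06, against 8.51% and 6.75% of all genes. NEAT1 stood at 7.86 FPKM in control (6.57 to 9.15), 2.81 in shDIS3L2 (1.62 to 3.9999) and 9.34 in shHNRNPU (7.89 to 10.8). The shDIS3L2 library lay below the other 2, which overlapped. The assembled bounds of NEAT1 differed between libraries. SS18L1 stood at 3.59, 112 and 41.5 FPKM in control, shDIS3L2 and shHNRNPU, and its merging with MTG2 also differed between them. Between shHNRNPU and shDIS3L2, NEAT1 and RBM4B were higher (2 of 29) and EWSR1 and SS18L1 lower (2 of 29), against 9.24% and 10.1% of all genes.

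Of 33 genes of the nuclear lamina, matrix and chromatin scaffold, 4 were higher and 1 lower in shHNRNPU, with a median of 0.03, against 7.47% and 6.84% of all genes. TOP2A, the topoisomerase of mitotic chromosomes, stood at 15.9 FPKM in control (14.8 to 17.0), 30.7 in shDIS3L2 (28.6 to 32.7) and 55.7 in shHNRNPU (53.2 to 58.3). ZNF326, which encodes a matrix-associated zinc finger protein, and ARID1A, a subunit of SWI/SNF, had log2 ratios of 1.24 and 1.12. LMNB2, lamin B2, merged with TIMM13, was the lower gene, at 192 FPKM against 386 in control, a log2 ratio at the threshold. In shDIS3L2, 4 were higher and 0 lower, with a median of 0.20, against 8.51% and 6.75% of all genes. They included TPR, a protein of the nuclear basket (3.89 to 12.3 FPKM), HMGA2, an architectural chromatin protein (10.9 to 30.04 FPKM), and SUN2 of the nuclear envelope (45.7 to 113 FPKM), merged with DNAL4 in at least 1 library. HMGA2 and SUN2 were also the 2 of 33 past the rule between the knockdowns, both lower in shHNRNPU than in shDIS3L2, with log2 ratios of -1.74 and -1.39, where 9.24% of all genes were higher and 10.1% lower. The assembled bounds of ZNF326, HMGA2 and SUN2 differed between libraries.

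Of 28 nuclear speckle and SR-related genes, 3 were higher and 0 lower in shHNRNPU, with a median of 0.10, against 7.47% and 6.84% of all genes. SAP18 and RNPS1, subunits of the ASAP complex that joins the exon junction complex, stood at 384 FPKM against 153 and at 350.3 against 138. RNPS1 was merged with ECI1 in at least 1 library, and the bounds of both differed between libraries. In shDIS3L2, 4 were higher and 2 lower, with a median of 0.41, against 8.51% and 6.75% of all genes and a median of 0.09. CLK1, a kinase of SR proteins, stood at 6.85 FPKM in control (5.65 to 8.05), 48.0 in shDIS3L2 (42.1 to 53.9) and 14.01 in shHNRNPU (12.3 to 15.7). THRAP3 was among the other higher genes, with a log2 ratio of 1.08, as was NKTR, which was listed at 0 in control. Of the lower ones SON was listed at 0 in shDIS3L2, against 25.7 FPKM in control, and RBM25 had a log2 ratio of -1.09. The bounds of NKTR and RBM25 differed between libraries too. Between shHNRNPU and shDIS3L2, 4 of 28 were higher, among them RNPS1 and RBM25 (log2 ratios 1.69 and 1.15) and SON, and 3 lower, CLK1, THRAP3 and TRA2A (-1.71, -1.02 and -1.01). Of all genes 9.24% were higher and 10.1% lower in that comparison. MALAT1, the long noncoding RNA of speckles, stood at 1.84, 4.01 and 3.56 FPKM in control, shDIS3L2 and shHNRNPU.

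**Figure D4:**
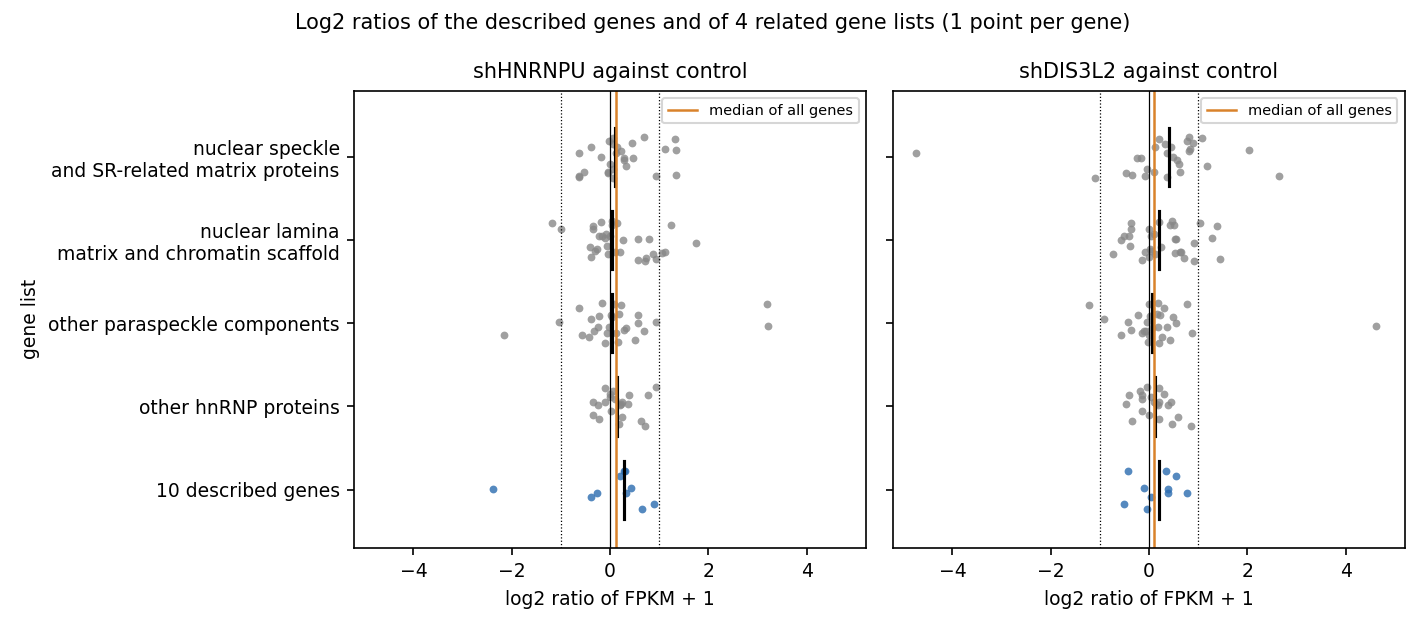
Log2 ratios of FPKM plus 1 against control for the 10 described genes and 4 related lists, 1 point per gene with a mean FPKM of at least 1, black bars at list medians, an orange line at the median of all genes and dotted lines at -1 and 1. The panels share the control library. The 22 other hnRNP genes all lie between the dotted lines in both panels, and EWSR1 at -2.15 is the lowest paraspeckle gene in shHNRNPU.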

How the data were processed

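PLC cells were profiled by RNA-seq in 3 libraries, 1 per group. The authors deposited FPKM per gene, each with interval bounds, per the file headers. The submitters' processing notes name TopHat2 2.0.12, Cufflinks 2.2.1 and hg19. Locus identifiers in the deposited tables show separate assembly in each library, so bounds and merging of overlapping genes can differ. The level of the bounds was not given in the sources used here; 95% was assumed. The control table held 0 mitochondrial rows, against 11 and 10 in shDIS3L2 and shHNRNPU; whether this touches the scaling is not known. Fragment counts were not used here, so no floor was computed.

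Names were split at commas and matched across libraries (Python 3.11.15, pandas 2.3.3). A name with several loci took its highest FPKM, and names sharing a locus in any library counted once in the background. Log2 ratios used a pseudocount of 1, which understates changes of low genes, and genes with a mean FPKM of at least 1. Ranges of folds combined the deposited intervals on the log scale with a normal quantile of 1.96. The genes, lists and rules were chosen with earlier results of these data known. Named list genes were up to 3 per list, comparison and direction with the largest ratio past the size rule. HNRNPH3, SIL1 and TGFB1 were named after their values were seen, while NEAT1, MALAT1 and HNRNPK were named in any case. A named list gene is not reported here. Promoter sequence came from RefSeq (GRCh38.p14), which held windows for 9 of the 10 genes. Shared stretches came from GENCODE release 29 transcripts and were counted on either strand.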

Additional observations from a re-analysis of the deposited data

How the results depend on the processing

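No paired analysis was possible because each group has 1 library, and for the same reason none could be left out. Of 90 ratios of single genes under other pseudocounts and rescaling, 1 changed sign, that of SAFB2 in shDIS3L2. HNRNPU kept its place past the size rule under both pseudocounts, rescaling and the 1.5-fold threshold.

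At a 1.5-fold threshold, 2 of the 10 genes were higher in shHNRNPU against control, 1 in shDIS3L2 against control, and 3 higher and 2 lower in shHNRNPU against shDIS3L2. Over all genes that threshold gave 2208 higher and 1522 lower, 2156 and 1626, and 2246 and 2120 in these comparisons. A pseudocount of 5 gave 360 and 460, 481 and 406, and 497 and 658, and a mean FPKM of at least 5 left 540 higher in shHNRNPU against control.

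Over the 7 genes whose locus carries no other name, which leaves out HNRNPU, HNRNPUL2 and NONO, 0 passed the size rule as lower in shHNRNPU against control, and 0 were higher and 0 lower in shHNRNPU against shDIS3L2. HNRNPU and HNRNPUL2 were the only ones of the 10 past the rule, so these counts of 0 follow from leaving them out. Intervals then lay apart for 3 higher and 2 lower genes in shHNRNPU against control, where 34.6% and 23.1% of all genes did. In shDIS3L2 against control there were 4 higher and 1 lower, where the shares were 32.9% and 24.8%. Between the knockdowns there were 2 higher and 3 lower, where they were 31.3% and 28.4%. The median log2 ratio of the 7 was 0.34 in shDIS3L2 against control and -0.33 between the knockdowns. With rescaling the median over all 10 genes was 0.13 in shHNRNPU and 0.0837 in shDIS3L2 against control.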
